A study of Mus musculus with 44 samples.

Results

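Emb, Alcam and Ncam1 encode 3 cell adhesion proteins of the immunoglobulin superfamily, and they were followed here by name, as 3 rows of the 3613 genes in the deposited table. Each was taken whole, over all 44 single cells, and the rule that picks them uses no measured value, though earlier results of these data were known. All 3 passed the low-value filter, which asks for reads in 10 or more of the 44 cells. The study asks how megakaryocytes act on osteomacs, the macrophages that line bone surfaces, and embigin (the product of Emb) and CD166 (of Alcam) stand in its title. Calvarial cells of newborn C57BL/6J mice, 100000 per culture, were kept for 16 h either with 50000 megakaryocytes or without them, and CD45+F4/80+CD41- cells were then sorted and captured singly on a microfluidic chip. The first group has 20 cells, all from plate 7, and the second has 24 cells, all from plate 3. Plate, capture and treatment therefore cannot be told apart. Titles of plate 3 cells name megakaryocytes as well, against the treatment field that set the groups. Cultures and animals are not named, so a group is 1 sample, no test between the groups was possible and no p-value is given. Cells of a plate share their source and are not replicates of a condition.

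Immunoglobulin-superfamily adhesion proteins carry immunoglobulin-like domains outside the cell and bind partners on neighbouring cells or on the same cell. Embigin is a close relative of basigin and serves as a chaperone of monocarboxylate transporters. CD166 binds itself and the lymphocyte protein CD6, is linked to the actin cortex through ezrin-type proteins and is shed by the protease ADAM17. NCAM binds itself and can signal through the fibroblast growth factor receptor, and it is best known from neurons and muscle. In the mm10 build of the mouse genome (GENCODE M21), Emb (ENSMUSG00000021728.8) lies on chromosome 13 at 117208536 to 117274415 on the plus strand, with up to 9 exons in a transcript. Alcam (ENSMUSG00000022636.13) lies on chromosome 16 at 52248996 to 52454074 on the minus strand, with up to 16 exons. Ncam1 (ENSMUSG00000039542.16) lies on chromosome 9 at 49502136 to 49798925 on the minus strand, with up to 20 exons. All 3 are annotated as protein-coding, with 6, 7 and 7 transcripts. The values are per gene, so isoforms and exons cannot be told apart.

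Levels are given as CPM, the reads of a gene per 1000000 library reads of the cell, both recovered from the deposited signal. Cells and plates are compared gene by gene, since without a length correction CPM does not rank genes. Library reads had a median of 834834 in plate 7 cells (69181 to 1212604) and of 527930 in plate 3 cells (270537 to 714465). Depth was lowest in plate 7 cells 11 (69181 reads) and 16 (71585), and results that turn on them are given without them too. The plates differed in cell type markers. The 18 listed macrophage markers summed to 4051 CPM or more in every plate 7 cell (median 25805) and to no more than 176 CPM in any plate 3 cell (median 10.7). The 8 listed osteoblast and fibroblast markers summed to a median of 15.0 CPM in plate 7 cells (5.17 to 2465) and of 13513 in plate 3 cells (6430 to 98819). The plate 3 cells thus go against their label as osteomacs and are named by their plate below. None of the 13 megakaryocyte and platelet markers looked for was among the listed genes, nor any osteoclast, endothelial, neural, muscle or lymphoid marker looked for. What follows describes these cells and not the effect of megakaryocytes, and the part of this marker difference in any difference between the plates was not tested.

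Emb was read in every plate 7 cell and at lower levels in most plate 3 cells. In the 20 plate 7 cells its level ran from 41.9 CPM in cell 16 through a median of 916 to 3200.3 in cell 12, and 19 cells had at least 100 CPM. Over the 24 plate 3 cells it ran from 0 through a median of 27.9 to 502 CPM in cell 13, with reads in 16 cells (66.7%, exact 95% interval 44.7 to 84.4%) and at least 100 CPM in 7. The ranges overlapped, and 15 of the 20 plate 7 cells lay above the highest plate 3 cell. The sums were 17454 reads (exact Poisson 95% interval 17196 to 17715) and 1326 reads (1256 to 1399). Pooled levels were 1116 and 107 CPM, a 10.4-fold higher level in plate 7 (9.88 to 11.1). On that scale 258 of the 3271 genes read in at least 10 of the 44 cells stood as high as Emb or higher, and 24.4% of those genes were at least 2-fold higher in plate 7. Intervals here and below cover counting error only, and the reads carry no molecular identifiers.

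Relative to plate 7, Emb kept a larger share of its reads in plate 3 than 5 leukocyte genes picked for comparison, but not than every gene of blood cells. The leukocyte genes Cd53, Tyrobp, Ptprc, Ctss and Lyz2 had 5, 3, 1, 11 and 25 reads in plate 3, which is 0.0103% to 0.0264% of their plate 7 reads. For Emb that share was 7.60%. Arhgdib, a gene of blood cells, had 3762 reads in plate 3 and 28087 in plate 7, a larger share than that of Emb. The leukocyte integrin gene Itgb2 had a pooled level 47.9-fold higher in plate 7, where Emb was 10.4-fold higher. Of its plate 3 reads, 80.8% were in 1 cell. The macrophage markers Cd14 and Cd68 were read in at least 10 plate 3 cells, and their shares are not given. The 5 genes therefore do not stand for all leukocyte genes. The 3 plate 3 cells with the most Emb were cell 13 (502 CPM), cell 14 (453) and cell 21 (298.0). Their macrophage markers summed to 11.4, 13.3 and 10.0 CPM, near the plate 3 median of 10.7.

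Alcam was split in both plates between cells with reads and cells without. Plate 7 cells ran from 0 through a median of 63.4 to 1205 CPM in cell 13, and 13 of 20 had a read (65.0%, 40.8 to 84.6%). Plate 3 cells ran from 0 through a median of 78.8 to 1257 CPM in cell 18, and 19 of 24 had a read (79.2%, 57.8 to 92.9%). The 2 ranges overlapped almost fully. Among cells with a read, the median was 165 CPM in plate 7 and 121.7 in plate 3. Pooled levels were 173 CPM (2705 reads) and 177 CPM (2201 reads), a ratio of 0.976 (0.922 to 1.03), an interval of counting error that includes 1. The sign of that ratio depended on the scaling, since size factors by the median of ratios gave a log2 ratio of 0.24.

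Ncam1 was a gene of the plate 3 cells. It ran there from 0 through a median of 190.2 to 1145 CPM in cell 12, with reads in 23 of 24 cells (95.8%, 78.9 to 99.9%) and at least 100 CPM in 17. Cell 9 was the exception with no read, and it also had none of Emb or Alcam. In plate 7, cells 2 and 5 had 1 Ncam1 read each and the other 18 cells had none. All 23 plate 3 cells with a read lay above every plate 7 cell. The sums were 2 reads in plate 7 (0.242 to 7.22) and 4940 in plate 3 (4803 to 5080), a pooled level 3111-fold higher in plate 3 (861 to 25699). To rank genes, plate sums under 3 reads were set to 3. By that ratio only 6 of the 3271 genes, Ncam1 among them, stood as low or lower in plate 7. Of all 3271 genes, 28.3% were at least 2-fold lower. The 2 reads are 0.0405% of the plate 3 reads. Of the 8 listed osteoblast and fibroblast markers, Sparc, Col1a2 and Lox left like traces in plate 7, at 0.0741%, 0.0772% and 0.0185%. The sum of all 8 reached 2465 CPM in plate 7 cell 7, so such traces do not hold for every marker. The source of the 2 Ncam1 reads was not tested. No plate 7 cell reached 10 CPM of Ncam1, and 3 counts over 20 cells, the limit that a count of 0 allows, come to 15.0%. Thinned to 310000 reads per cell, which leaves out the 2 shallowest cells of each plate, the shares with a read were 18 of 18 and 15 of 22 for Emb, 12 of 18 and 17 of 22 for Alcam, and 0 of 18 and 21 of 22 for Ncam1.

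**Figure D1:**
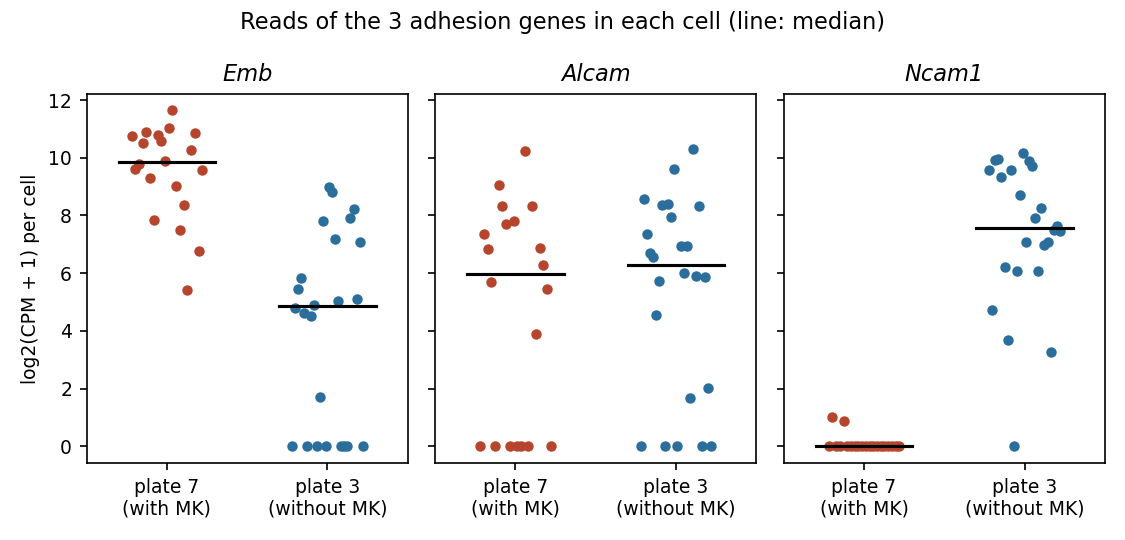
Level of each gene in each cell as log2(CPM + 1), with plate 7 (20 cells, with megakaryocytes) in red and plate 3 (24 cells, without) in blue, and a line at the median. Emb has no cell at 0 in plate 7, Alcam overlaps between the plates, and Ncam1 is at 0 in 18 plate 7 cells.

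Of the 3 genes, Alcam had the largest SD of log levels between cells in both plates, in plate 3 only slightly above Emb. On the log2(CPM + 1) scale, Emb had a mean and SD between cells of 9.52 ± 1.61 in plate 7 (n = 20) and 4.09 ± 3.35 in plate 3 (n = 24). Alcam had 4.69 ± 3.77 and 5.33 ± 3.42. For Ncam1 the values were 0.095 ± 0.29 and 7.37 ± 2.52. To set these spreads beside those of genes sampled as deeply, genes with a pooled CPM within 2-fold of the member in the same plate were taken. In plate 7, the 211 such genes for Emb had a median SD of 2.35, and 153 of them varied more than Emb. For Alcam in plate 7, 168 of 1048 such genes varied more, with a median SD of 3.34, and 212 were read in fewer than its 13 cells (median 16).

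In plate 3 all 3 genes varied more than most genes of like read number. Emb was exceeded by 87 of 1260 such genes (median SD 2.63), Alcam by 62 of 1047 (2.34) and Ncam1 by 119 of 581 (1.68). Emb was read in 16 plate 3 cells where these genes had a median of 21, Alcam in 19 against 23, and Ncam1 in 23 against 24. Plate 7 cell 13 held 36.2% of the plate's Alcam reads, where the top cell held a median of 27.6% for genes of like level, and the top 3 cells held 60.4%. For Emb in plate 7 and Ncam1 in plate 3 the top cell held 14.2% and 12.1%, below the medians of 15.8% and 12.7% for such genes. The top 3 cells of plate 3 held 56.9% of its Emb reads, 46.4% of its Alcam reads and 33.2% of its Ncam1 reads. The top 3 cells for Emb in plate 7 held 37.2%. In the deposited signal, whose scale differs by gene, the means and SDs over plate 7 and plate 3 cells were 44390 ± 33061 and 3776 ± 5832 for Emb. For Alcam they were 11284 ± 18864 and 12574 ± 19497, and for Ncam1 93.4 ± 289.8 and 385016 ± 382660.

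Joint reads were close to what the shares of the single genes give, and for most pairs those shares left little room for more. In plate 7, 12 of 20 cells had reads of Emb and Alcam, 6 of Emb alone, 1 of Emb and Ncam1, and 1 of all 3. No plate 7 cell had Alcam or Ncam1 without Emb, since Emb was read in all. In plate 3, 14 of 24 cells had reads of all 3 genes, 5 of Alcam and Ncam1, 2 of Emb and Ncam1, 2 of Ncam1 alone, and 1 of none. Emb and Alcam were read together in 14 plate 3 cells, where the product of their shares gives 12.7. At 100 CPM or more, 9 plate 7 cells had both Emb and Alcam (8.55 from the product) and 3 plate 3 cells (3.21). Alcam and Ncam1 together reached that level in 9 plate 3 cells (7.79). No count of cells with both genes differed from the product of the shares by as many as 2 cells. Most could hardly do so, since Emb was read in all 20 plate 7 cells and Ncam1 in 23 of 24 plate 3 cells. Those counts therefore cannot show whether the genes go together.

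**Figure D2:**
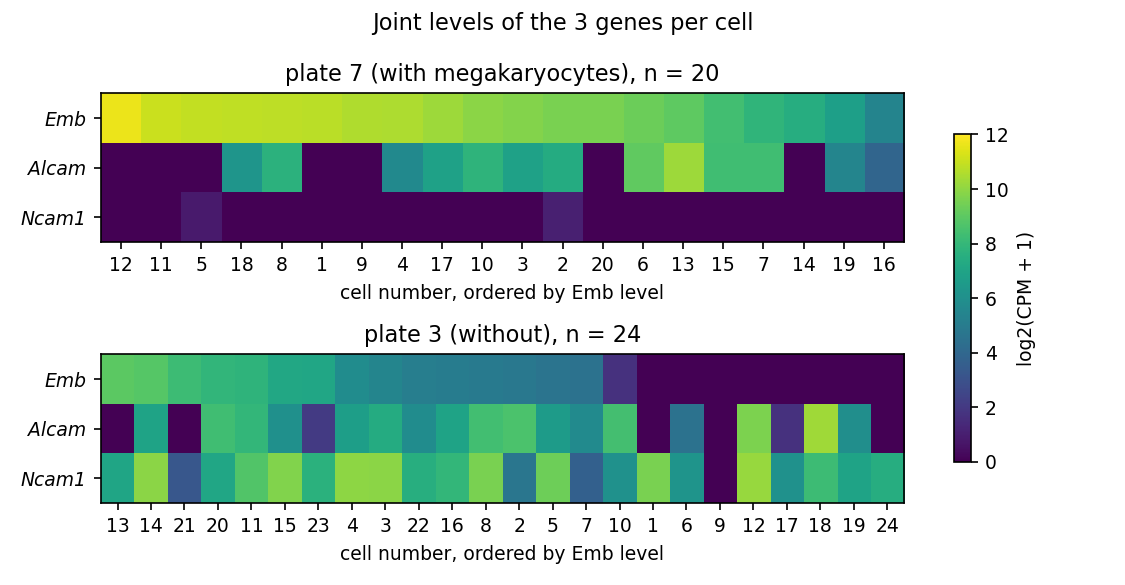
Level of the 3 genes in each cell as log2(CPM + 1) in colour, with the cells of each plate ordered from high to low Emb. In plate 7 the 3 cells with the most Emb (12, 11 and 5) have no Alcam read, while cell 13 has the most Alcam. In plate 3 Ncam1 is read in all cells but cell 9.

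Emb and Alcam leaned apart among plate 7 cells. The cells with the most Emb, cells 12, 11 and 5 at 3200.3, 2082 and 1916 CPM, had no Alcam read, though cell 11 is 1 of the 2 shallow cells. Cells 13 and 6, with the most Alcam at 1205 and 530.0 CPM, had 519 and 630.3 CPM of Emb, below the plate median. Other cells did not follow this order. Cells 14 and 20 had no Alcam read and 179 and 759 CPM of Emb, cells 16 and 19 were low in both genes, and cell 8 had 1782 CPM of Emb with 208 of Alcam. The Spearman rank correlation over the 20 cells was −0.38, at rank 50 from the bottom of 2203 genes with Emb and at rank 156 with Alcam. It was −0.39 without the 2 shallow cells and −0.43 in thinned cells, while Pearson's r of the log levels was −0.24. Over the 24 plate 3 cells the Emb and Alcam correlation was 0.04. Alcam and Ncam1 had 0.38 there, at rank 167 of the 2769 genes ranked with Alcam, and Emb and Ncam1 had 0.19. These are weak values over few cells of 1 plate that share their capture, and they are descriptions only. Library reads correlated with Emb at 0.04 in plate 7 and 0.41 in plate 3, with Alcam at −0.07 and 0.16, and with Ncam1 at 0.02 in plate 3. The osteoblast and fibroblast sum correlated with Alcam at 0.37 in plate 7 and −0.51 in plate 3, and its part in the values for Alcam was not tested.

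In plate 7, more genes stood high with Emb than with most genes, by a margin that rested in part on the 2 shallow cells. Among the 2203 other genes read in at least 10 of its 20 cells, 56 had a Spearman correlation of 0.6 or more with Emb. That is 2.54%, where all gene pairs of the plate gave 0.805%, and 26 of the 2204 genes, Emb included, had as many such partners. Without the shallow cells 11 and 16 the count was 27 of 2069, or 1.3% against 0.842% of all pairs, and 371 of 2070 genes had as many. In thinned cells, which leave out the same cells, it was 24 of 1819, or 1.32% against 0.836%. Emb correlated at 0.32 with the number of listed genes read in a cell, and the part of that in the count was not tested. Among the genes with the highest values were Prdx5 (0.74), Rps27a (0.72), Hbp1 (0.72) and Cherp (0.72). Prdx5 encodes a peroxide-reducing enzyme, Rps27a a protein of the small ribosomal subunit and Hbp1 a transcriptional repressor. Prdx5 ran from 0 through a median of 103 to 652 CPM and kept 0.68 in thinned cells. Rps27a had only 220 reads in the plate and kept 0.65. Genes with processed copies in the genome, such as those of ribosomal proteins, may share reads with them.

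The lowest value with Emb in plate 7 was that of Malat1, a nuclear long noncoding RNA, at −0.64. It ran from 1335 through a median of 6623 to 245233 CPM in cell 16, the cell with the least Emb. Without cells 11 and 16 it was −0.80. The other low genes were Atp6v1g1, a subunit of the vacuolar proton pump, at −0.60 and the annexin gene Anxa4 at −0.60. Without cells 11 and 16 they had −0.80 and −0.63. For Atp6v1g1, Pearson's r of the log levels over all 20 cells was −0.25. A single gene had −0.6 or less with Emb in plate 7 (0.0454%), where all pairs gave 0.218%. Without cells 11 and 16 there were 12 such genes of 2069 (0.58%, against 0.43% of all pairs), and in thinned cells 10 of 1819 (0.55%, against 0.436%).

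Alcam in plate 7 had 17 genes at 0.6 or more, or 0.772% of 2203, near the 0.805% of all pairs. By Pearson's r of the log levels 4 genes reached it (0.182%, against 1.21% of all pairs). Another 17 genes had −0.6 or less, also 0.772%, where all pairs gave 0.218%, and 74 of 2204 genes had as many such partners. The genes highest with Alcam were Sec14l1 (0.73), the cytokine receptor kinase gene Jak1 (0.70), Lgmn (0.69), the plasma membrane calcium pump gene Atp2b1 (0.69) and the translocon gene Sec61g (0.67). By Pearson's r, Jak1 had 0.49, Atp2b1 0.44 and Sec61g 0.53. Lgmn, a lysosomal protease, was read in all 20 cells, from 15.5 through a median of 1345 to 6613 CPM. Sec14l1 had a median of only 2.75 CPM and a highest value of 586. The lowest was Hspa8, a constitutive heat shock chaperone, at −0.80. It ran from 7.86 through a median of 299 to 2501 CPM and stayed between −0.62 and −0.82 under the alternatives. Ugt1a7c, a member of a gene cluster with shared exons whose reads are uncertain, was also low at −0.70.

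**Figure D3:**
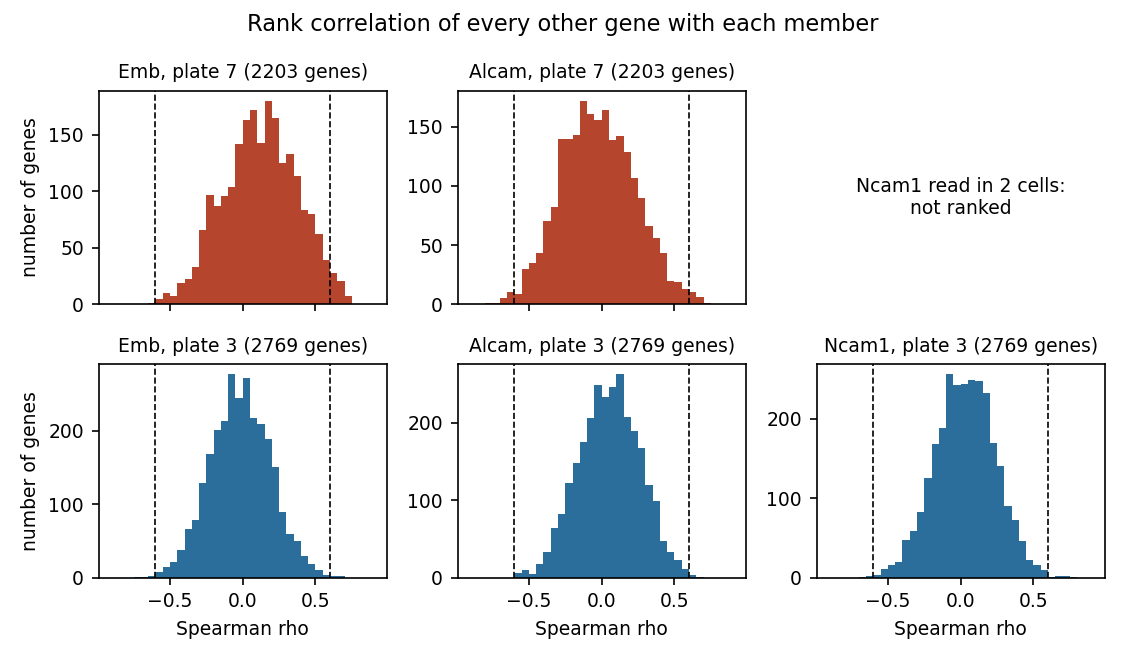
Number of genes by Spearman correlation with each member over the cells of a plate (20 in plate 7, 24 in plate 3), with dashed lines at 0.6 and −0.6. Emb in plate 7 is shifted to positive values (median 0.13), while the medians of the other 4 lie between −0.033 and 0.055.

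In plate 3 few genes stood high or low with any member. Emb had 4 genes at 0.6 or more of 2769 (0.144%), Alcam 5 (0.181%) and Ncam1 6 (0.217%), where all gene pairs of the plate gave 0.259%. Counts this small moved with single cells. Without plate 3 cell 18, which has the most Alcam, the Alcam count was 13 of 2751. Without cell 12, which has the most Ncam1, the Ncam1 count was 11 of 2737. The share of all pairs in those cells is not given, so a change in that share cannot be told from a change in these genes. By Pearson's r the Ncam1 count was 41 (1.48%, against 0.508% of all pairs), and 233 of 2770 genes had as many. At −0.6 or less, Emb had 5 genes (0.181%), Alcam 0 (its lowest was −0.59) and Ncam1 3 (0.108%), against 0.116% of all pairs, and 657 of 2770 genes had as many as Emb. By Pearson's r the Emb and Ncam1 counts were 2 and 1, and in thinned cells 6 and 7.

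The genes highest with Emb in plate 3 were Arhgdib (0.66), Ghitm (0.66), Lyz2 (0.64), Ctsd (0.62) and Commd4 (0.56). Ctsd, a lysosomal protease, ran from 0 through a median of 394 to 2401 CPM. Lyz2, the lysozyme of macrophages, had 25 reads in 11 plate 3 cells and at most 6 in a cell, so its place rests on few reads. The sum of the macrophage markers had 0.20 with Emb in plate 3, and the osteoblast and fibroblast sum −0.17. The genes lowest with Emb there were the mitochondrial protein gene Chchd2 (−0.71), the coenzyme Q binding gene Coq10b (−0.67) and the proteasome gene Psmd12 (−0.62). Chchd2 was read in all 24 cells, from 7.61 through a median of 101 to 284 CPM.

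Arhgdib was the gene that stood high with Emb in both plates. It encodes an inhibitor of small GTPases in blood cells. In plate 7 it was read in all 20 cells, from 125.7 through a median of 1820 to 4198 CPM, and its correlation with Emb was 0.72, the sixth highest of 2203. In plate 3 it was read in 20 of 24 cells, from 0 through a median of 246 to 902 CPM, and its correlation was 0.66, the highest of 2769. All 16 plate 3 cells with Emb reads had Arhgdib reads, and of the 8 cells without Emb reads 4 had none of Arhgdib. The correlation was 0.70 in plate 7 without the shallow cells, and 0.69 and 0.77 in thinned cells of plates 7 and 3. Arhgdib was chosen for this description after its values were seen. Of the 1938 genes ranked in both plates, 49 had 0.6 or more with Emb in plate 7 and 4 in plate 3, and Arhgdib was the 1 gene in both. Of the 49, 18 had a positive correlation in plate 3, where 47.1% of all 2769 genes ranked there had one. The median of the 49 in plate 3 was −0.066, and that of the genes ranked in both plates −0.030. Across the 1938 genes, the correlations with Emb in plate 7 and in plate 3 had a Spearman correlation of −0.034, and those with Alcam −0.026. Genes are not independent replicates, and these values are descriptions.

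**Figure D4:**
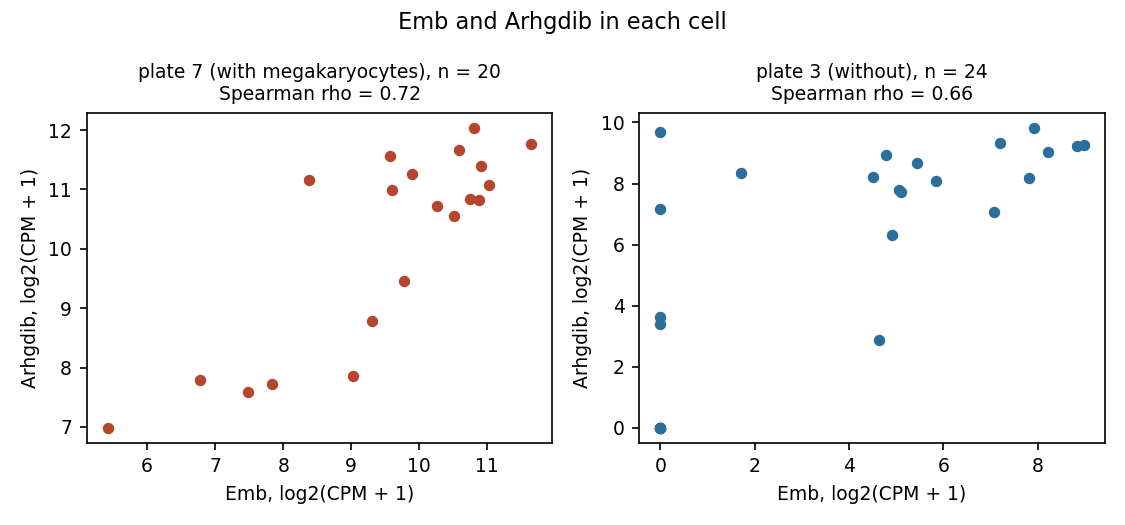
Emb against Arhgdib in each cell, both as log2(CPM + 1), for 20 plate 7 cells (left) and 24 plate 3 cells (right). The Spearman correlations are 0.72 and 0.66, and the 4 plate 3 cells with no Arhgdib read lie on the same point, with no Emb read.

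The plate 3 genes highest with Alcam were Eif2ak1 (0.69), Etfdh (0.64), Ankrd49 (0.63), Ppid (0.61) and Timm9 (0.61). Eif2ak1 encodes a kinase of the translation factor eIF2, Etfdh a dehydrogenase of the mitochondrial electron transfer flavoprotein, Ppid a cyclophilin and Timm9 a chaperone of mitochondrial protein import. Ppid was read in all 24 cells, from 45.9 through a median of 225 to 558 CPM. Lowest with Alcam were Prdx5 (−0.59), the transcription factor gene Klf6 (−0.58) and the retromer gene Vps26b (−0.57). Prdx5, high with Emb in plate 7, had −0.05 with Emb in plate 3 and −0.27 with Alcam in plate 7.

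Ncam1 in plate 3 was followed most closely by Wasf2 (0.75), Mbnl1 (0.75), Cops6 (0.71), Iqsec1 (0.68) and Lnp (0.66). Wasf2 encodes WAVE2, a regulator of actin branching at the cell edge, and Iqsec1 an exchange factor of the small GTPase ARF6. Wasf2 ran from 0 through a median of 33.3 to 159 CPM and stayed between 0.75 and 0.79 under the alternatives. Mbnl1, an RNA-binding splicing regulator, had a median of 1483 CPM, and its Pearson's r of the log levels was 0.38. Lowest with Ncam1 were the fumarate hydratase gene Fh1 (−0.68), Prrc2c (−0.62) and Cpeb4 (−0.61). Ncam1 was not ranked in plate 7, where 2 cells had a read.

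Ribosomal protein genes leaned opposite ways with Emb and Alcam, and opposite ways in the 2 plates. This list was chosen after Rps27a was seen among the genes above. Of 56 ribosomal protein genes in plate 7, 50 correlated positively with Emb (median 0.26), where 68.7% of all 2203 genes did (median 0.13). With Alcam 7 of 56 were positive (median −0.21), where 45.7% of all genes were. Of 58 in plate 3, 10 were positive with Emb (median −0.16, against 47.1% of all genes), 46 with Alcam (0.15, against 59.6%) and 32 with Ncam1 (0.018, against 55.9%). The ribosomal genes of a cell share its overall ribosomal level, so they count as little more than 1 measure. Their summed CPM had correlations of 0.34 with Emb and −0.35 with Alcam in plate 7, and of −0.37 and 0.41 in plate 3. Without plate 7 cells 11 and 16, the plate 7 values were 0.22 and −0.41. Of the 56 genes, 45 were then positive with Emb, against 60.4% of all genes, and 7 with Alcam, against 43.8%.

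Among other adhesion genes of the superfamily, levels in the 2 plates split by gene. Of 48 genes looked for, 13 were listed in the table, the 3 members among them, and 12 were read in at least 10 cells. Of these 12, 6 were at least 2-fold higher in plate 7 (24.4% of all genes were) and 4 at least 2-fold lower (28.3%). The median log2 ratio was 0.56, and −0.14 over all 3271 genes. With the reads of listed genes as the total the split was 5 and 5, and with median-of-ratios size factors 6 and 3. Highest in plate 7 were Cd84 (492 CPM and no read in plate 3), Cd48 (410 CPM and no read) and Cd300a (231 and 0.161 CPM), all genes of leukocyte surface receptors. Against a floor of 3 reads over the plate, Cd84 was at least 2036-fold and Cd48 at least 1696-fold higher. Lowest, beside Ncam1, were Pvr, the poliovirus receptor gene, at 0.575 and 157 CPM, and the nectin gene Pvrl2 at 5.18 and 22.1. Basigin (Bsg), the relative of embigin, stood at 111 CPM in plate 7 and 245 in plate 3, a ratio of 0.453 (0.427 to 0.481), while Emb was higher in plate 7. Bsg correlated with Emb at 0.34 in plate 7 and 0.05 in plate 3.

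**Figure D5:**
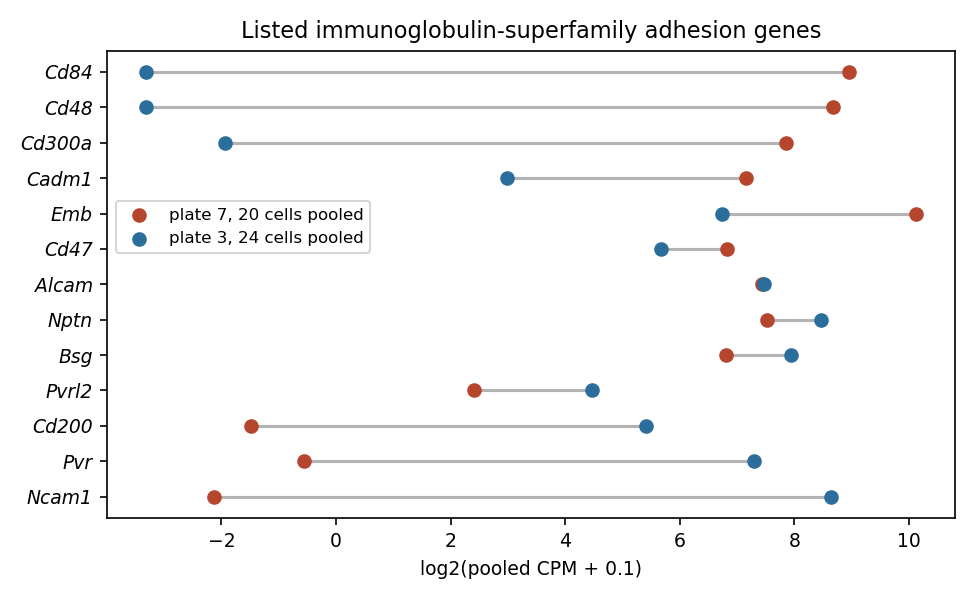
Pooled level of the 13 listed immunoglobulin-superfamily adhesion genes as log2(CPM + 0.1), in plate 7 (red, 20 cells) and plate 3 (blue, 24 cells), ordered by the difference. Points compare the plates within a gene. Emb is higher in plate 7, Alcam is about level, and Ncam1 is lower in plate 7.

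Known partners of the 3 proteins stood on either side between the plates, at shares near those of all genes on the higher side, and none correlated with a member at 0.6 or −0.6. Of 26 partner genes looked for, 9 were listed, of which 2 were at least 2-fold higher in plate 7 (24.4% of all genes were) and 4 at least 2-fold lower (28.3%). Their median log2 ratio was −0.42, and that of all genes −0.14. Higher were Sdcbp, which encodes the scaffold syntenin, at 1493 and 484 CPM and Adam17 at 402 and 131.2. Cd9, a tetraspanin that associates with CD166, stood at 560.3 and 454. Lowest were Fgfr1, the receptor through which NCAM can signal, at 0.512 and 275 CPM, the monocarboxylate transporter gene Slc16a1 at 45.6 and 125.6, and the radixin gene Rdx at 126.1 and 274. Fgfr1 was read in all 24 plate 3 cells and Ncam1 in 23, and their levels correlated at 0.16. Slc16a1 was read in 8 plate 7 cells and correlated with Emb at 0.10 in plate 3. Adam17 correlated with Alcam at 0.28 in plate 7, and Cd9 at 0.44 in plate 7 and 0.33 in plate 3. Among the 23 adhesion and partner genes ranked for each member in each plate, none reached 0.6 or −0.6, and the range over all was −0.40 to 0.49.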

How the data were processed

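The deposited values are a signal per gene and cell. The table's header gives cell names only, so its form was worked out from the values: reads × 1e+09, over the product of a cell's library reads and a whole number that each gene has. The smallest number that gave whole reads was taken, so reads of a gene could be a multiple of those printed, while ratios between cells would stay as they are. Per the submitters' processing notes, the build is mm10 and Seurat is among the tools. What aligner, counter or annotation was used is not given in the sources used here. All 99807 values above 0 came back as whole reads (tolerance 0.0001), and every column was used. The design assumed counts or, failing that, means of the deposited values, so recovered reads are the main values and signal means stand beside them.

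Cells were grouped by the treatment label. Shares have exact Clopper-Pearson intervals, sums exact Poisson intervals and ratios exact binomial intervals, all at 95%. Spearman correlations of CPM were computed within a plate over genes read in at least 10 of its cells. For each member the 5 highest and 3 lowest were named whose Pearson's r of log2(CPM + 1) had the same sign, predicted and mitochondrial genes and names turned to dates aside, with the 3 highest and 3 lowest ratios of each gene list. Some genes that this rule names are not reported here. The members and lists were chosen with earlier results of these data known. Cells were not clustered, none was removed, and no doublet caller was run on 44 cells. The scripts were tested on simulated data and used Python 3.11.15, numpy 2.4.6, pandas 2.3.3 and scipy 1.17.1. Alternatives were a limit of 10 CPM, thinning, leaving out shallow or top cells, other totals, size factors, pseudocounts, filters and Pearson's r.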

Additional observations from a re-analysis of the deposited data

How the results depend on the processing

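Of the values recomputed under an alternative for shares, ratios, joint counts and numbers of correlated genes, 58 stayed within the spread set for them and 31 did not. The sign turned only for the pooled ratio of Alcam, with size factors. Its alternatives lay on both sides of 0, so its direction is not settled. The log2 ratio of Emb was 3.39 and became 3.56 on the deposited signal, 3.12 with listed reads as the total, 3.51 with size factors and 3.55 without the top cell of each plate. That of Alcam was −0.04 and became −0.16, −0.30, 0.24 and −0.37 in the same order. Listed reads as the total shifted the median of all genes by −0.26. For Ncam1, a pseudocount of 10 turned the difference in mean log level from −7.27 to −4.31. At 10 CPM or more, and in thinned cells, the Ncam1 share in plate 7 was 0%, as were its joint counts with Emb (0) and Alcam (0). Numbers of genes at 0.6 or more moved most. For Emb in plate 7, 56 of 2203 (2.54%) became 24 of 1819 (1.32%) in thinned cells and 27 of 2069 (1.3%) without shallow cells. By Pearson's r it became 93 of 2203 (4.22%). Among genes read in at least 15 cells it was 36 of 1352. Fewer genes were ranked there, so that count is not a fall in the share. For Alcam, 17 became 4 by Pearson's r in plate 7, and 5 became 11 in thinned cells and 13 without its top cell in plate 3. For Ncam1 in plate 3, 6 became 11 in thinned cells, 11 without its top cell and 41 by Pearson's r. The share of all gene pairs at 0.6 or more moved as well. In plate 3 it went from 0.259% to 0.359% in thinned cells and 0.508% by Pearson's r. In plate 7 it went from 0.805% to 0.836% and 1.21%. It is not given without a top cell or for genes read in at least 15 cells. The 11 genes of Alcam, and of Ncam1, in thinned plate 3 cells were 0.415% of those ranked. At −0.6 or less, Emb in plate 7 went from 1 to 10 in thinned cells and 12 without shallow cells, and Emb in plate 3 from 5 to 2 by Pearson's r. Alcam in plate 3 went from 0 to 1 in thinned cells, and Ncam1 from 3 to 7 in thinned cells and 1 by Pearson's r. The cause of these shifts was not tested. The alternatives at −0.6 or less were chosen after seeing the data, as was a filter of at least 100 reads in plate 3, which moved no count by more than 1.5 times. No paired analysis was possible because the cell numbers of the 2 plates only count cells and no test was made.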

Other observations

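Among integrins and other adhesion genes outside the superfamily, levels went either way between the plates, at shares near those of all genes. Of 30 looked for, 11 were listed and 10 were read in at least 10 cells. Of these, 3 were at least 2-fold higher in plate 7 (24.4% of all genes were) and 3 at least 2-fold lower (28.3%), with a median log2 ratio of −0.71 against −0.14 over all genes. Higher were the leukocyte integrin subunits Itgam, at 637 against 0.161 CPM, and Itgb2, at 482 against 10.1, and the selectin ligand gene Selplg (77.4 CPM and no read in plate 3). Plate 7 holds 59.1% of its Selplg reads in 1 cell, and plate 3 holds 80.8% of its Itgb2 reads in 1 cell. Lower were the fibronectin receptor subunits Itga5 (1.79 and 308 CPM) and Itgb1 (90.7 and 1174), and Itgav (162 and 485). Itgb1 correlated with Alcam at 0.49 over the 20 plate 7 cells and at 0.25 over the 24 plate 3 cells. Sdc4, a heparan sulphate proteoglycan gene, correlated with Alcam at 0.41 and 0.37.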
